A study of Mus musculus with 20 samples.

Results

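Slc25a13 encodes citrin, a carrier of the inner mitochondrial membrane that exports aspartate in exchange for glutamate and a proton. It was described here together with 8 further genes of the malate-aspartate shuttle and of mitochondrial glutamate transport. All 9 genes were measured, among 22180 genes with a symbol, by 10 of the 41345 probe sets of the arrays. Slc25a13 was chosen by its difference between Dex and saline arrays, so its Dex values are given as a description with no test. The other 8 genes were taken for their place in the pathway, and the members and gene lists were settled with earlier results of these data known.

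RNA came from the spinal cord of C57BL/6J mice 6 to 10 weeks old. The 4 groups of 5 arrays were Cx30GRko mice injected with dexamethasone (Dex, 4 mg/kg, i.p.), Cx30GRko mice injected with saline, control mice injected with the same dose of Dex, and control mice injected with saline. Tissue was taken 4 h after injection in every group. The array titles give Tg and wt, here taken to mean Cx30GRko and control; the name stands for loss of the glucocorticoid receptor by Cre recombinase in cells that use the connexin gene Gjb6, chiefly astrocytes in the cord. The spinal cord was chosen as the tissue where Cre recombined best. The sources used here do not give the alleles of the control mice or how Cre was switched on. Nothing in the labels states that the animals of a group came from separate litters or days, so p-values measure the spread between these arrays.

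Values are log2 signals, on which a difference of 1 is a doubling of the signal. The arrays fall into 2 sets, replicates 1 to 3 (12 arrays) and replicates 4 and 5 (8 arrays), within which each probe set has the same mean. The spread was wider in the second set (median residual SD of a gene 0.37, against 0.21 in the first). Cx30GRko Dex replicates 4 and 5 stood apart, with an SD over all probe sets of 1.95 in replicate 4 and 1.81 in replicate 5, against 1.66 to 1.71 in the other 18 arrays. The targeted gene gave little check of the labels: Nr3c1, the glucocorticoid receptor gene, averaged 6.59 ± 0.70 in Cx30GRko Dex and 6.22 ± 0.08 in control Dex arrays, and 6.19 ± 0.21 in Cx30GRko saline and 6.21 ± 0.50 in control saline arrays (SD, n = 5 each). The sources used here do not say which exons its probes read. The number of arrays limits the precision of every value.

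The malate-aspartate shuttle carries the reducing equivalents of cytosolic NADH into mitochondria, whose inner membrane NADH itself does not cross. Cytosolic malate dehydrogenase (Mdh1) spends NADH to turn oxaloacetate into malate, the 2-oxoglutarate carrier (Slc25a11) takes malate in, and mitochondrial malate dehydrogenase (Mdh2) regenerates NADH there. The mitochondrial aspartate aminotransferase (Got2) turns oxaloacetate into aspartate, an aspartate-glutamate carrier exports it, and the cytosolic aminotransferase (Got1) closes the cycle. The carrier step is regarded as the irreversible one. It is served by citrin (Slc25a13), known best from liver, where it also feeds the urea cycle, and by aralar (Slc25a12), the main form of brain and muscle, found chiefly in neurons. In humans, loss of citrin causes citrin deficiency. Slc25a22 and Slc25a18 encode mitochondrial glutamate carriers that bring glutamate in with a proton, and Slc25a18 is enriched in astrocytes.

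The upstream sequences of both aspartate-glutamate carrier genes are shown because only the gene of citrin was selected on its Dex difference, and the glucocorticoid receptor binds DNA at sites built from the letters AGAACA. Each is the 250 bases before an annotated start, from RefSeq on GRCm38.p6, read 5′ to 3′ on the minus strand of the chromosome, with capitals reserved for those letters on either strand. The Slc25a13 stretch lies at chr6:6217174-6217423 and is 62.8% G and C. The Slc25a12 stretch lies at chr2:71367756-71368005 and is 49.6% G and C.
Slc25a13: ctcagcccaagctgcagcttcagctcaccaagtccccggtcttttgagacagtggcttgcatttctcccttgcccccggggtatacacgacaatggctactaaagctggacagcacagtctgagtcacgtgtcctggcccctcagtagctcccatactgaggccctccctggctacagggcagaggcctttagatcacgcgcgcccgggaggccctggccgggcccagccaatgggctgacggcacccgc
Slc25a12: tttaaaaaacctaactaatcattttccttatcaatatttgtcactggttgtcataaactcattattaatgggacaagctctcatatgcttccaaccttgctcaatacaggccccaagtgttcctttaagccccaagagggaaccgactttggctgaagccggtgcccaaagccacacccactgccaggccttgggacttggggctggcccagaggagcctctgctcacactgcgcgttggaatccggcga

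Neither stretch holds them. Windows of 300 bases around the starts were matched for 9 of 9 members, 11 windows in all, and 0 of the 11 held AGAACA on either strand. Of all 32851 windows of this length in the RefSeq table, 6233 held it. This says only that these letters are not in these windows. Receptor binding far from gene starts is common in general, and such regions were not analysed here.

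Slc25a13 (probe set 17464672) had higher signal in every Dex array than in any saline array. In Cx30GRko mice its log2 signal in replicates 1 to 5 was 6.71, 6.18, 5.32, 6.22 and 6.57 after Dex, against 4.63, 4.89, 4.53, 4.67 and 4.66 after saline. In control mice it was 6.00, 6.14, 6.25, 6.03 and 5.06 after Dex, against 4.56, 4.41, 4.73, 4.77 and 4.92 after saline. The lowest Dex arrays, control Dex replicate 5 and Cx30GRko Dex replicate 3, lay nearest to the saline arrays without reaching them.

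**Figure D1:**
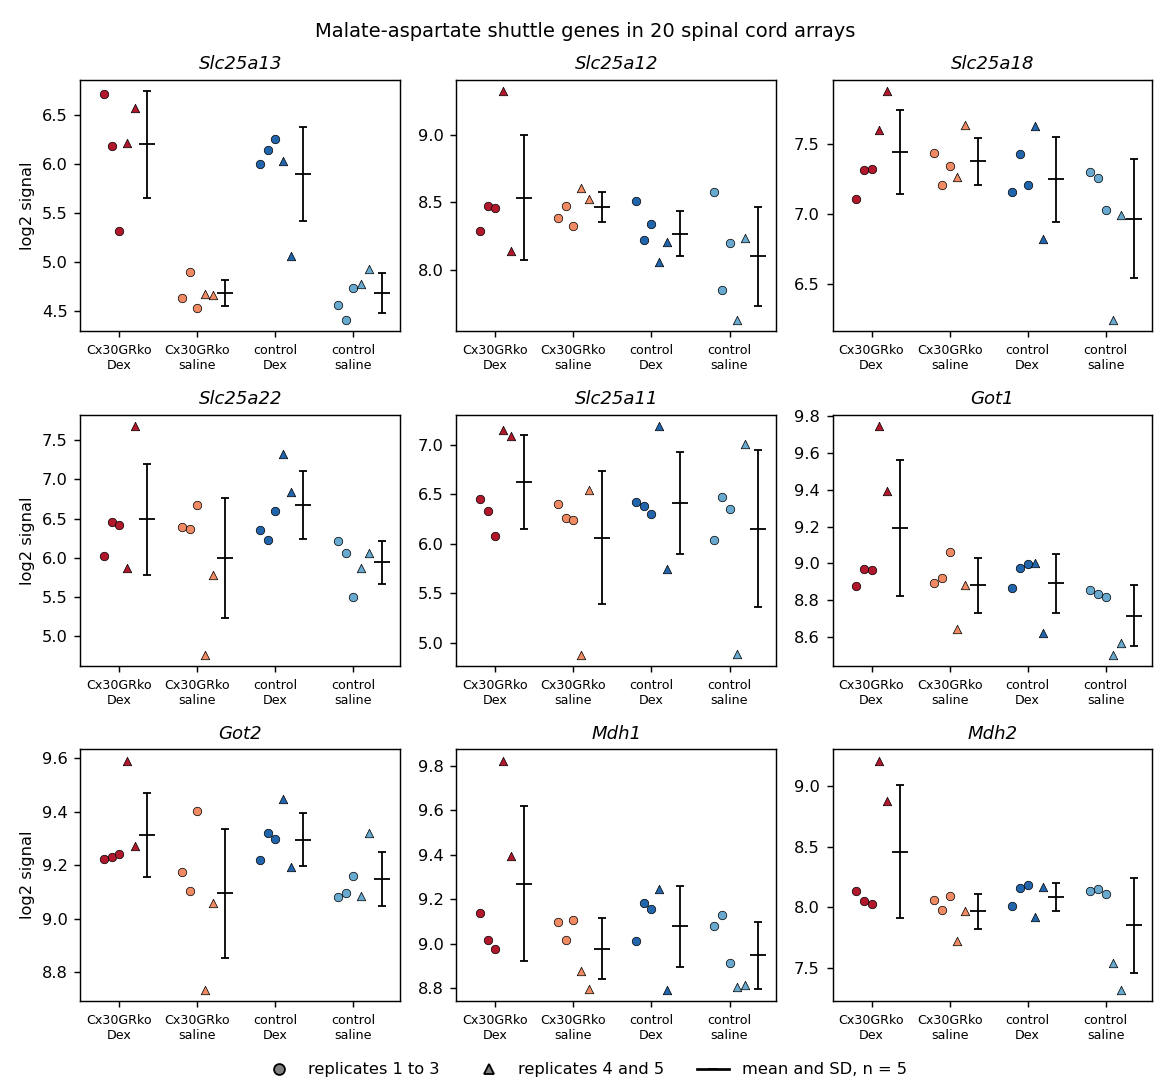
Log2 signal (vertical axis, a scale of its own in each panel) of the 9 shuttle genes in the 20 arrays, by group; circles are replicates 1 to 3, triangles replicates 4 and 5, and bars the mean with its SD (n = 5). The Slc25a13 values after Dex (5.06 to 6.71) all lie above those after saline (4.41 to 4.92), while the 10 Dex and the 10 saline arrays overlap for each of the other 8 genes.

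The group means of Slc25a13 were 6.20 ± 0.54 in Cx30GRko Dex, 4.68 ± 0.13 in Cx30GRko saline, 5.90 ± 0.48 in control Dex and 4.68 ± 0.20 in control saline arrays (SD, n = 5 each). Both saline means lay near the median signal over all genes (4.68). Without detection calls, how far they stood above background is not known, which limits the fold values. The Dex difference was 1.52 in Cx30GRko mice, a 2.87-fold signal, and 1.22 in control mice, a 2.33-fold signal. Over both genotypes it was 1.37, a 2.59-fold signal. By array set it was 1.39 in the first and 1.73 in the second in Cx30GRko mice. In control mice it was 1.57 in the first and 0.70 in the second. The smaller control value in replicates 4 and 5 contains control Dex replicate 5, which was 0.21 above the saline mean of its set, while control Dex replicate 4 was 1.18 above it. Without Cx30GRko Dex replicates 4 and 5, the arrays that stood apart, the mean difference was 1.31.

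These values chose the gene, and the background stands beside them as a description. The limma fit called 4 of 22180 genes for Dex in Cx30GRko mice (0.018%), 3 in control mice (0.0135%) and 33 for the mean of both (0.149%). Groups that did not overlap, with Dex higher, were seen for 13 genes when all 10 Dex arrays were set against all 10 saline arrays (0.0586%). The share was 1.05% in Cx30GRko mice alone and 0.784% in control mice alone. Slc25a13 was the 1 member without overlap over all arrays and in Cx30GRko mice. In control mice Slc25a22 also showed none.

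The order of the Slc25a13 group levels was Cx30GRko Dex, control Dex, control saline and Cx30GRko saline. Neighbours within each treatment did not differ beyond their spread. Under Dex the genotype difference (Cx30GRko minus control) was 0.30 ± 0.23 (SE; 95% interval -0.17 to 0.78; limma adjusted p = 0.63; n = 5 each). Under saline it was -0.0035 ± 0.23 (interval -0.48 to 0.47; adjusted p = 0.999). The difference between both Dex effects, Cx30GRko minus control, was 0.30 ± 0.32 (interval -0.37 to 0.98; adjusted p = 0.897). The interval reaches from a smaller to a nearly 1 log2 unit larger Dex difference in Cx30GRko mice, so equal effects are not shown. Within the first set this interaction was -0.18 and within the second it was 1.03.

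Slc25a12, the gene of the second aspartate-glutamate carrier, aralar (probe set 17386396), was not called for Dex, genotype or their interaction. Its log2 signals in replicates 1 to 5 were 8.29, 8.47, 8.46, 9.32 and 8.14 in Cx30GRko Dex, against 8.38, 8.47, 8.33, 8.61 and 8.53 in Cx30GRko saline arrays. In control mice they were 8.51, 8.23, 8.34, 8.06 and 8.21 after Dex, against 8.57, 7.86, 8.20, 7.64 and 8.24 after saline. Dex and saline arrays overlapped in both genotypes. The Slc25a12 Dex difference was 0.07 ± 0.19 in Cx30GRko mice (SE; interval -0.33 to 0.47; limma adjusted p = 0.922) and 0.17 ± 0.19 in control mice (interval -0.24 to 0.57; adjusted p = 0.978; n = 5 each). Its mean Dex difference was 0.08 in the first array set and 0.18 in the second. Since Slc25a13 was selected on this contrast, the gap between the carriers is not tested.

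Neither glutamate carrier was called for Dex, and the SE was larger for Slc25a22 than for Slc25a18. Slc25a22 (probe set 17497904) had 6.02, 6.46, 6.42, 5.87 and 7.68 in Cx30GRko Dex, against 6.39, 6.36, 6.68, 4.76 and 5.77 in Cx30GRko saline arrays. In control mice it had 6.35, 6.23, 6.60, 7.33 and 6.84 after Dex, against 6.22, 6.06, 5.49, 5.87 and 6.06 after saline. The control groups of Slc25a22 did not overlap, by a gap of 6.23 against 6.22, whereas the Cx30GRko groups did. Its Dex difference was 0.50 ± 0.33 in Cx30GRko mice (limma adjusted p = 0.607) and 0.73 ± 0.33 in control mice (interval 0.04 to 1.42; adjusted p = 0.942). The mean difference of 0.61 ± 0.23 did not pass either (adjusted p = 0.523), with 0.15 in the first array set and 1.31 in the second.

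Slc25a18 (probe set 17462395), the glutamate carrier enriched in astrocytes, ranged from 7.11 to 7.88 in Cx30GRko Dex, from 7.21 to 7.63 in Cx30GRko saline, from 6.82 to 7.63 in control Dex and from 6.25 to 7.30 in control saline arrays. All 4 ranges overlapped. Its Dex difference was 0.07 ± 0.20 in Cx30GRko mice (limma adjusted p = 0.932) and 0.28 ± 0.20 in control mice (adjusted p = 0.951). In bulk tissue, fewer cells of a type and less RNA per cell cannot be told apart, and that holds for each gene described here.

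Slc25a11, the carrier that brings malate in against 2-oxoglutarate (probe set 17265306), had the widest scatter of the 9 genes in replicates 4 and 5. It ranged from 6.08 to 7.15 in Cx30GRko Dex, from 4.88 to 6.54 in Cx30GRko saline, from 5.75 to 7.19 in control Dex and from 4.89 to 7.01 in control saline arrays. The lowest value of each saline group belonged to replicate 4. Its Dex difference was 0.56 ± 0.35 in Cx30GRko mice (limma adjusted p = 0.589) and 0.25 ± 0.35 in control mice (adjusted p = 0.983).

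Among the 4 enzymes, Mdh2 (probe set 17443310), the mitochondrial malate dehydrogenase, showed how far the array sets parted. Its log2 signals in replicates 1 to 5 were 8.13, 8.05, 8.03, 9.21 and 8.88 in Cx30GRko Dex, against 8.06, 7.98, 8.09, 7.72 and 7.97 in Cx30GRko saline arrays. In control mice they were 8.01, 8.15, 8.18, 7.92 and 8.17 after Dex, against 8.14, 8.15, 8.11, 7.54 and 7.32 after saline. In replicates 1 to 3 the 12 values of Mdh2 stayed within 7.98 to 8.18, whereas in replicates 4 and 5 the Cx30GRko Dex arrays were the highest and the control saline arrays the lowest. The mean Dex difference of Mdh2 was 0.37 ± 0.15 (limma adjusted p = 0.541), with 0.01 in the first array set and 0.91 in the second. Leaving out Cx30GRko Dex replicates 4 and 5 gave 0.17 (adjusted p = 0.998).

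The other enzymes did not pass either. The mean Dex difference was 0.21 ± 0.11 for Mdh1 (probe set 17260944; limma adjusted p = 0.598), 0.24 ± 0.11 for Got1 (17364932; 0.574) and 0.18 ± 0.09 for Got2 (17512103; 0.592). For Mdh1, Got1 and Got2 in turn the first set gave 0.02, 0.04 and 0.09, and the second gave 0.49, 0.54 and 0.33. The highest Dex value of each of the 3 genes was that of Cx30GRko Dex replicate 4, at 9.82 for Mdh1, 9.75 for Got1 and 9.59 for Got2. Got2 had a second, dimmer probe set (17443874), which ranged from 3.02 to 3.69 in Cx30GRko Dex, from 3.58 to 4.43 in Cx30GRko saline, from 3.48 to 4.23 in control Dex and from 3.29 to 4.77 in control saline arrays. RefSeq lists processed copies of Got2 (Got2-ps1 and Gm3922) as pseudogenes, so which transcripts each Got2 probe set reads is uncertain.

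**Figure D2:**
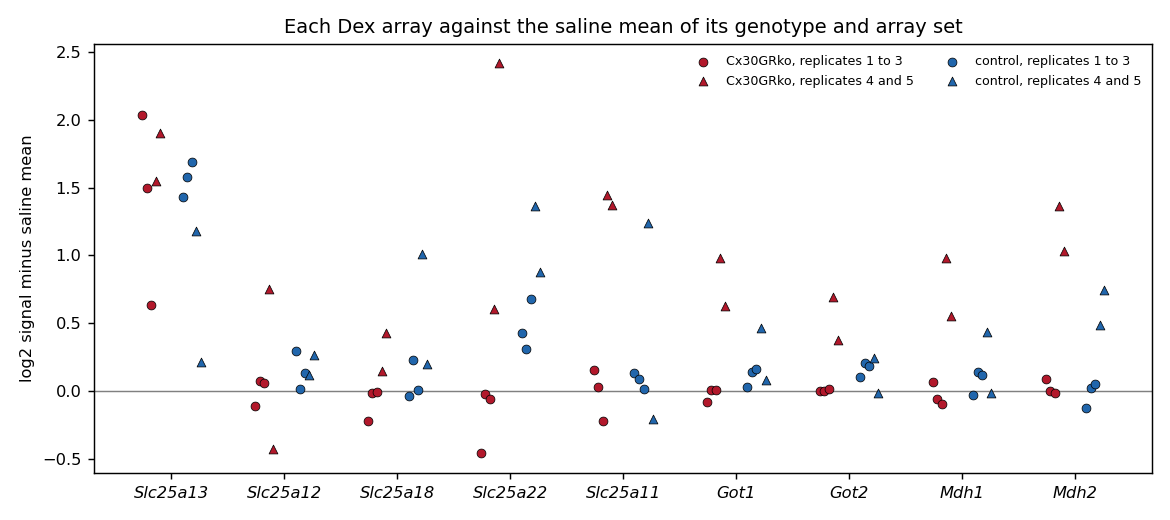
Log2 signal of each Dex array minus the mean of the saline arrays of the same genotype and array set (vertical axis) for the 9 genes; circles are replicates 1 to 3, triangles replicates 4 and 5. For Slc25a13 all 10 arrays lie above 0 in both sets, whereas for Mdh2 and Got1 the arrays of replicates 1 to 3 lie near 0 and those of Cx30GRko replicates 4 and 5 highest.

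Counted together, 0 of the 8 genes other than Slc25a13 were called by limma for Dex in Cx30GRko mice, in control mice or for the mean of both, with 1, 1 and 3 of them at an unadjusted p under 0.05. Over all genes the shares at such a p were 9.73%, 5.16% and 8.64%. The 3 for the mean were Slc25a22, Got1 and Mdh2. All 8 had positive differences in each of these comparisons, as had 53.7%, 52.3% and 54.1% of all genes. Their medians were 0.30 in Cx30GRko mice, 0.21 in control mice and 0.23 for the mean, beside 0.02, 0.01 and 0.02 over all genes. The all-gene values are not matched for signal: group means of the 8 were 5.94 to 9.31, against a median signal of 4.68 over all genes. The sizes of the 8 differences, and in Cx30GRko mice their signs, differed between the array sets. In Cx30GRko mice 3 of the 8 were positive in replicates 1 to 3 (median -0.02) and 8 of 8 in replicates 4 and 5 (median 0.79). In control mice the counts were 7 of 8 (median 0.10) and 8 of 8 (median 0.40). For the mean they were 7 of 8 (median 0.04) and 8 of 8 (median 0.52). Over all genes the positive shares in the first and second set were 49.7% and 54.9% in Cx30GRko mice and 51.9% and 51.5% in control mice. For the mean they were 50.1% and 54.5%, and these all-gene medians lay between -0.001 and 0.06. Leaving out Cx30GRko Dex replicates 4 and 5, all 8 were positive for the mean (median 0.13) and 6 of 8 in Cx30GRko mice (median 0.09).

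Whether the mean Dex difference itself changed between the sets was tested for each gene (replicates 4 and 5 minus replicates 1 to 3). None of the 9 members was called by limma, against 50 of all genes (0.225%), and 4 members had an unadjusted p under 0.05, as had 12.6% of all genes. These were Mdh2 at 0.90 ± 0.25 (adjusted p = 0.139), Slc25a22 at 1.17 ± 0.43 (0.265), Got1 at 0.50 ± 0.21 (0.341) and Mdh1 at 0.47 ± 0.21 (0.361). For Slc25a13 the change was -0.27 ± 0.34 (interval -0.98 to 0.45; adjusted p = 0.812). Its residual SD was alike in both sets, 0.37 in replicates 4 and 5 and 0.38 in replicates 1 to 3. That of the other 8 was 2.32 to 6.99 times as large in replicates 4 and 5.

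Markers of several cell types moved with the enzymes in the second set. The median mean Dex difference of 12 astrocyte markers was 0.10 in the first set and 0.43 in the second. For 12 neuron markers it was -0.03 and 0.54, and for 9 measured of 10 oligodendrocyte markers 0.01 and 0.32. The mean log2 signal of the astrocyte list was 7.41 to 8.24 in Cx30GRko Dex, 7.20 to 7.51 in Cx30GRko saline, 7.03 to 7.52 in control Dex and 7.15 to 7.42 in control saline arrays. That of the neuron list was 8.09 to 8.87, 8.07 to 8.31, 8.15 to 8.29 and 7.66 to 8.22 in the same order. None of these markers was called, nor any measured marker of microglia, endothelial cells, meningeal fibroblasts, Schwann cells and skeletal muscle. For the mean Dex effect 0.149% of all genes were called, so 0 calls do not show that cell types stayed alike. An unadjusted limma p under 0.05 for that effect was seen for 3 of 12 astrocyte, 3 of 12 neuron, 2 of 9 oligodendrocyte and 2 of 9 endothelial markers. The other lists had 0, and over all genes the share was 8.64%. In Cx30GRko Dex replicate 4 the astrocyte, neuron and oligodendrocyte means were 0.80, 0.68 and 0.82 above the mean of their set. In the same array the endothelial, meningeal and Schwann cell means deviated from it by 0.47, 0.84 and 0.78. Those of microglia and skeletal muscle went the other way, by -0.15 and -0.87. Other lists had negative medians of the mean Dex difference in the first set, with -0.21 for endothelial cells, -0.16 for meningeal fibroblasts and -0.28 for Schwann cells and roots. Their medians in the second set were 0.13, -0.09 and 0.23 in the same order. For microglia the first set gave -0.02 and the second 0.15, and for skeletal muscle -0.135 and -0.0015. In the first set the Dex median of the meningeal list was 0.19 in Cx30GRko and -0.67 in control mice. That of the Schwann cell list was 0.14 in Cx30GRko and -0.70 in control mice. The part of these shifts in the values of Slc25a13 and the other shuttle genes was not tested.

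The genotype gave no call among the 9 genes. Limma called 0 of 22180 genes (0%) for genotype under Dex, for genotype under saline and for the interaction, with 2481, 1165 and 1253 genes at an unadjusted p under 0.05. Of the 8 members other than Slc25a13, 0, 1 and 0 had such a p. That member was Slc25a18, which stood 0.41 ± 0.20 higher in Cx30GRko saline than in control saline arrays (interval 0.0048 to 0.82; adjusted p = 0.914), with 0.13 in the first set and 0.83 in the second. Under Dex the genotype difference of Slc25a18 was 0.19 ± 0.20 (adjusted p = 0.728).

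Slc25a12 had genotype differences of 0.27 ± 0.19 under Dex (interval -0.14 to 0.67; limma adjusted p = 0.61) and 0.36 ± 0.19 under saline (interval -0.04 to 0.76; adjusted p = 0.914). For Slc25a22 they were -0.18 ± 0.33 under Dex (adjusted p = 0.874) and 0.05 ± 0.33 under saline (adjusted p = 0.99). The interactions were -0.09 ± 0.27 for Slc25a12 (adjusted p = 0.965), -0.22 ± 0.28 for Slc25a18 (0.914) and -0.23 ± 0.47 for Slc25a22 (0.948). Under Dex the genotype difference was positive for 1 of the 8 genes in the first set and for 7 in the second, so it had no common direction across the sets.

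**Figure D3:**
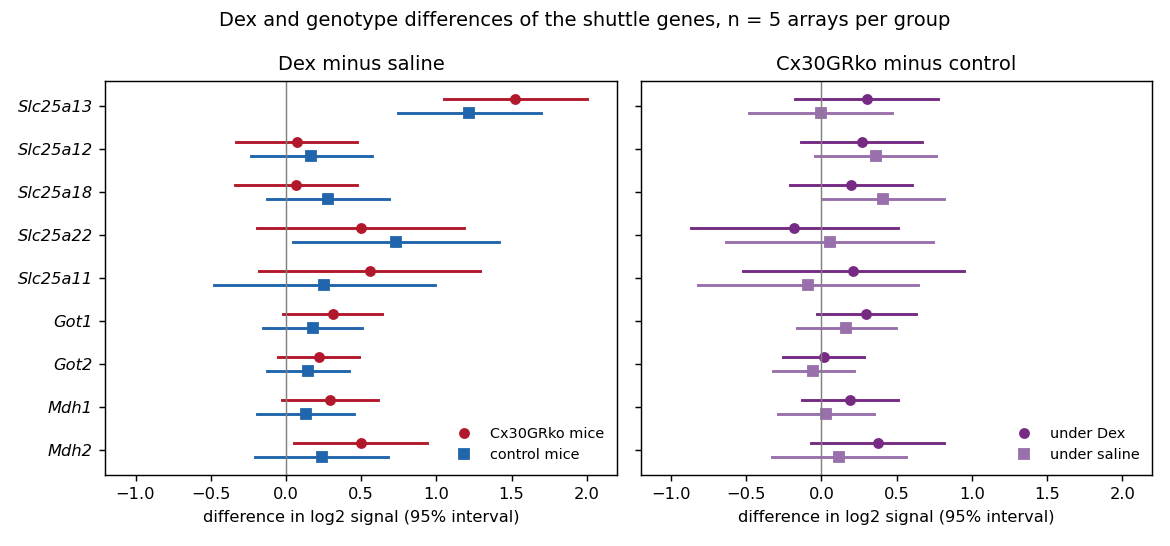
Differences in log2 signal (horizontal axes) of the 9 genes with 95% intervals from the limma fit (n = 5 arrays per group): Dex minus saline on the left, Cx30GRko minus control on the right. Slc25a13, which was selected on its Dex difference, stands at 1.52 and 1.22 on the left, and its genotype intervals on the right include 0.

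Over all 20 arrays most pairs of the 8 genes other than Slc25a13 correlated positively, in part through a few arrays. Of the 28 pairs 27 had a positive Pearson correlation over 20 arrays, with a median r of 0.53. By a two-sided permutation test 15 passed (100000 permutations, Benjamini-Hochberg over 28 pairs), and 5 passed by Spearman's rho. No background of other gene pairs stands beside these counts, so they do not mark the shuttle genes out from other genes. The permutations ran over all 20 arrays, across groups and array sets, with group differences left in and a wider spread in replicates 4 and 5. These p-values are therefore no test of how genes vary together within a group or set. The highest r was that of Got1 and Mdh1, the cytosolic enzymes, with r = 0.92 (adjusted permutation p = 0.00014) and rho = 0.78 (adjusted permutation p = 0.00308). Leaving out Cx30GRko Dex replicates 4 and 5 gave 0.76; these were the arrays farthest from the Got1 median. Within the first set it was 0.32 and within the second 0.96. For Got1 and Mdh2 r was 0.90 over all arrays, 0.0040 in the first set and 0.92 in the second. The median over the 28 pairs was 0.21 in the first set and 0.59 in the second. Leaving out, for each pair, the 2 arrays farthest from the median of its first gene, the median r was 0.25 and 8 pairs were negative. These included all 7 pairs of Slc25a12; that of Slc25a12 and Got1, which had passed (r = 0.58, adjusted permutation p = 0.0312), was at -0.15 and so rested on Cx30GRko Dex replicate 4 and control saline replicate 4. With the group and set means removed the median r was 0.29 and 8 of the 28 pairs were negative. All values of an array share its RNA and its normalization.

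The genes most like Slc25a13 over the 20 arrays were none of its pathway. By Pearson's r, each array taken relative to its set, they were Nt5c3, a cytosolic nucleotidase (r = 0.91, rho = 0.79), Sgk3, a kinase of the serum- and glucocorticoid-regulated family (0.88, 0.79), and Ppp2r3a, a regulatory subunit of protein phosphatase 2A (0.87, 0.80). Hs1bp3 (0.86, 0.78) and Setdb2, of the histone methyltransferase family (0.83, 0.79), followed. The lowest were Clec12a, a lectin receptor of myeloid cells (-0.83, -0.76), and the microRNA gene Mir669c (-0.77, -0.68). These are the extremes of 22179 genes and carry no p. The gap between Dex and saline arrays enters each r. With the group and set means removed r was 0.64 for Nt5c3, 0.41 for Sgk3, 0.67 for Ppp2r3a, 0.79 for Hs1bp3 and 0.55 for Setdb2. It was -0.71 for Clec12a and -0.70 for Mir669c. The part of the gap in each r was not tested.

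Within the 10 Dex arrays r with Slc25a13 was 0.83 for Nt5c3, 0.64 for Sgk3, 0.69 for Ppp2r3a, 0.83 for Hs1bp3 and 0.71 for Setdb2. Within the 10 saline arrays it was -0.51, -0.35, -0.03, 0.32 and 0.28 in the same order. These genes were chosen by their r over all arrays, the Dex arrays included. High values within the Dex arrays therefore follow in part from that choice. They carry no test and are no independent evidence of likeness, which also holds for the Nt5c3 values given next. In the Dex arrays where Slc25a13 was lowest, Nt5c3 was lowest too. Nt5c3 stood at 7.09, 6.67, 6.35, 6.72 and 7.70 in Cx30GRko Dex, against 5.91, 5.65, 5.89, 6.15 and 6.00 in Cx30GRko saline arrays. It stood at 6.95, 6.85, 6.97, 6.55 and 6.18 in control Dex, against 5.76, 5.81, 5.87, 5.73 and 5.47 in control saline arrays. Among the shuttle genes the most like Slc25a13 was Mdh1 (r = 0.56, rank 342 of 22179), and the least was Slc25a12 (r = 0.18, rank 6897). For Mdh1 r was 0.26 in the first set and 0.88 in the second, 0.55 within the 10 Dex arrays and -0.64 within the 10 saline arrays.

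**Figure D4:**
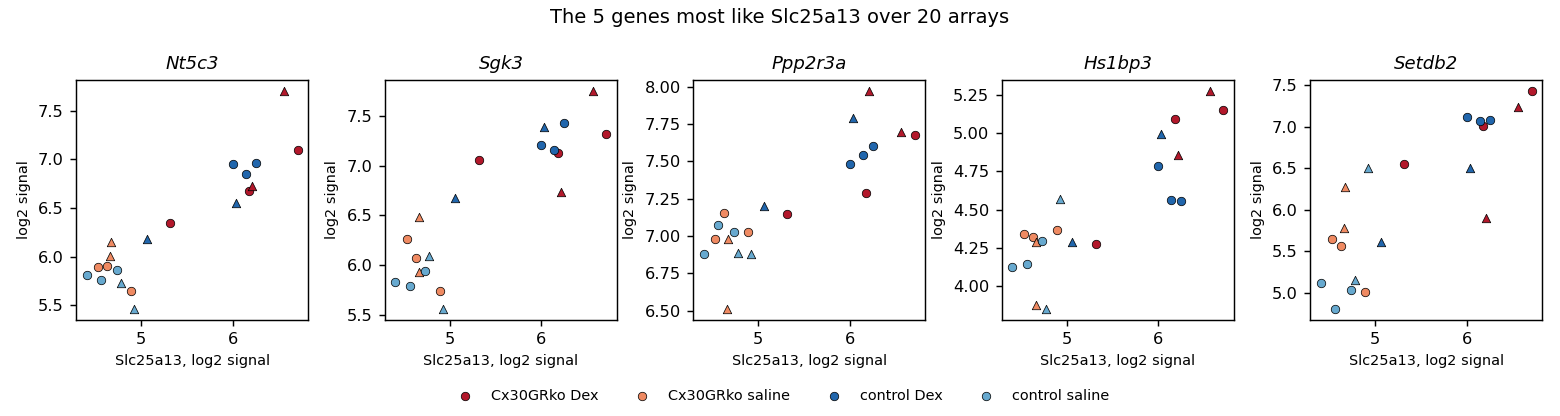
Log2 signal of the 5 genes most like Slc25a13 (vertical axes) against that of Slc25a13 (horizontal axes) in the 20 arrays, coloured by group; circles are replicates 1 to 3 and triangles replicates 4 and 5. Dex and saline arrays do not overlap along Slc25a13, the gene selected on that difference. On the vertical axes they do not overlap for Nt5c3 and Sgk3, but they do for Ppp2r3a, Hs1bp3 and Setdb2. The Dex arrays with the lowest Slc25a13 (5.06 and 5.32) have the lowest Nt5c3 (6.18 and 6.35). The genes shown were chosen by their r with Slc25a13 over these same arrays.

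The wider pathway was read from 6 lists of metabolic genes, and no member of them was called for Dex in either genotype or for the mean, beside the 0.149% of all genes called for the mean. In limma's mean Dex effect 0 of 38 measured mitochondrial carriers other than the members passed (4 at an unadjusted p under 0.05, median 0.06). Over all genes the median was 0.02 and 8.64% had such a p, the background for each list here. The smallest p of that list belonged to Slc25a3, the phosphate carrier, at 0.54 ± 0.17 (adjusted p = 0.419; 0.07 in the first array set and 1.24 in the second), and Slc25a44, a carrier of branched-chain amino acids, at 0.44 ± 0.16 (0.478). Of 16 measured genes of the tricarboxylic acid cycle 0 passed (3 unadjusted, median 0.18), with Idh3g, an isocitrate dehydrogenase subunit, at 0.31 ± 0.11 (0.465) and Fh1, fumarase, at 0.46 ± 0.17 (0.52). Their median was 0.04 in the first set and 0.43 in the second.

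Of 10 genes of the other NADH shuttles, malic enzymes and lactate dehydrogenases 0 passed (1 unadjusted, median 0.10). The glycerol phosphate shuttle runs beside the malate-aspartate shuttle, and its mitochondrial dehydrogenase gene Gpd2 stood at 0.43 ± 0.16 (limma adjusted p = 0.523; -0.05 in the first set and 1.16 in the second), followed by the malic enzyme gene Me1 at 0.37 ± 0.20 (0.614). Of 17 genes of pyruvate entry and gluconeogenesis 0 passed (1 unadjusted, median 0.03), with Pdk4, the kinase that shuts off pyruvate dehydrogenase, at 0.33 ± 0.14 (0.541) and the opposing phosphatase gene Pdp1 at 0.42 ± 0.22 (0.599). Of 12 glutamate and aspartate enzymes 0 passed (1 unadjusted, median 0.11), with glutamine synthetase, Glul, at 0.25 ± 0.11 (0.551) and asparagine synthetase, Asns, at 0.23 ± 0.14 (0.651).

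The urea cycle, to which citrin supplies aspartate in liver, gave 0 of 12 genes (1 unadjusted, median 0.02). Its smallest p were those of Slc25a2, an ornithine carrier, at 0.31 ± 0.13 (limma adjusted p = 0.541), and Otc, ornithine transcarbamylase, at 0.27 ± 0.13 (0.578). A list of 20 genes widely induced by glucocorticoids was in part chosen on earlier results of these arrays, so its values are a description with no test. Its median mean Dex difference was 0.72, with 0.77 in the first array set and 0.56 in the second. The first and second set gave 0.72 and 0.61 in Cx30GRko mice, and 0.84 and 0.34 in control mice. All 20 mean differences were positive, as were 54.1% over all genes. In replicates 4 and 5 of control mice Fkbp5 (-0.34), Lcn2 (-0.64), Dusp1 (-0.13), Tsc22d3 (-0.09) and Ddit4 (-0.03) were negative and the rest positive. In replicates 4 and 5 of Cx30GRko mice Pdk4 (-0.12), Sult1a1 (-0.19) and Lcn2 (-0.23) were negative and the rest positive. The genes named next, by their mean difference, are the 10 that passed in these same arrays, beside 0.149% of all genes. The highest difference was that of Cdkn1a, a cell cycle inhibitor, at 1.80 ± 0.19 (SE). Zbtb16 stood at 1.19 ± 0.18, Hif3a at 1.13 ± 0.19, Arrdc2 at 1.11 ± 0.15, Errfi1 at 1.02 ± 0.15 and Sgk1, a kinase named for its induction by glucocorticoids, at 1.01 ± 0.13. Plin4 stood at 0.94 ± 0.18, Ddit4 at 0.83 ± 0.16, and the metallothionein genes Mt2 and Mt1 at 0.75 ± 0.11 and 0.48 ± 0.09. Slc25a13, itself selected on this difference, stood at 1.37.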

How the data were processed

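The deposited table holds log2 values per probe set. The submitters' processing notes name oligo; the sources used here give neither its version nor the normalization, genome build or annotation. Per the labels' protocols, total RNA was labelled with biotin for Affymetrix whole-transcript arrays, 1 array per sample. All 20 columns have a mean of 4.64, and every probe set has the same mean in replicates 1 to 3 and in replicates 4 and 5 (largest difference 4.5e-09), a centring within array sets that the labels do not mention.

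Of the 41345 probe sets, 23521 had 1 gene symbol, 1814 several and 16010 none; names come from GEO's platform annotation. For each of 22180 genes the probe set of highest mean was tested. Values were used as deposited, with no filter, since the table holds no detection calls. Group means were fitted to all 20 arrays with limma 3.58.1 in R 4.3.3 (16 residual and 5.66 prior degrees of freedom). The centring used up 1 further degree of freedom, which a block for the array set counts. P-values were two-sided and adjusted by Benjamini-Hochberg over all genes, and an adjusted p under 0.05 was a call. The array set difference was fitted with terms for the set and for set by treatment. The fit was tested on simulated data.

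The members and lists were chosen with earlier results of these data known. All 9 members are named, every called gene of the 7 lists (124 of 130 genes measured) or else the 2 of smallest p, and the 5 most and 2 least like Slc25a13. Marker lists held 77 genes, 68 of them measured. Alternatives were blocks for the array set or replicate number, either set alone, arrays left out, array weights, other choices of probe set, quantile normalization again, a filter on signal and an adjusted p under 0.01. Same-numbered arrays did not deviate together (mean correlations of -0.12 to -0.06), so numbers were not taken to pair animals.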

Additional observations from a re-analysis of the deposited data

Results flagged for a closer look

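In 4 of 36 sets of 5 arrays (9 genes in 4 groups) an array lay far from the other 4, with a gap of more than 0.71 of the whole range. Chance gives about 1 in 20 where all 5 values share the same spread. Each group here mixed 2 array sets of unlike spread for most of these genes, so the count is not compared with that rate. For Slc25a13, control Dex replicate 5 had 5.06, below the other control Dex arrays at 6.00 to 6.25. For Slc25a12, Cx30GRko Dex replicate 4 had 9.32, above the others at 8.14 to 8.47. For Got2, Cx30GRko Dex replicate 4 had 9.59, above the others at 9.23 to 9.27. For Slc25a11, Cx30GRko saline replicate 4 had 4.88, below the others at 6.24 to 6.54. The 4 values come from 3 arrays, Cx30GRko Dex replicate 4 giving 2 of them, and all 3 belong to replicates 4 and 5, the set with the wider spread; the cause was not tested.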

How the results depend on the processing

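The Dex difference of Slc25a13, on which the gene was selected, was positive under each of the alternatives run. With 1 array left out it was 1.39 to 1.74 in Cx30GRko and 1.13 to 1.43 in control mice. Every Dex array lay above every saline array, so leaving arrays out could not turn it negative, and these values carry no test. The difference moved by more than its spread in replicates 4 and 5 of control mice alone (0.70). No other member was called for Dex, genotype or the interaction under any alternative. For the array set difference 0 or 1 members were called with 1 array left out: Mdh2 passed without control Dex replicate 4 (1.07, limma adjusted p = 0.0359). A replicate block left each member's difference as it was (Slc25a13 interaction 0.30, adjusted p = 0.948) and brought the number of genes that pass for the mean of both Dex effects to 15, against 33 without it. That count was 24 with an array set block, 101 in replicates 1 to 3, 0 in replicates 4 and 5, 129 with array weights, 20 with every probe set and 13 at an adjusted p under 0.01. For Dex in Cx30GRko mice, 4 genes passed, against 0 with a replicate block and 18 with array weights; in control mice 3 passed, against 0 and 58. For the array set difference 50 passed, against 21 and 2.

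Small uncalled differences changed sign; the cause was not tested. For Dex in Cx30GRko mice this was so in replicates 1 to 3 for Slc25a11 (-0.0112), Slc25a18 (-0.0825), Slc25a22 (-0.18), Got1 (-0.0219) and Mdh1 (-0.0284). Without Cx30GRko Dex replicates 4 and 5, with array weights and with quantile normalization again it was so for Slc25a12 (-0.0578, -0.0015 and -0.15) and Slc25a18 (-0.13, -0.0185 and -0.0838), and for Got2 with its probe sets averaged (-0.10). With 1 array left out Slc25a12 ranged from -0.12 to 0.17 and Slc25a18 from -0.0423 to 0.15. For Dex in control mice Mdh2 was -0.015 in replicates 1 to 3, and Slc25a11 ranged from -0.062 to 0.47 with 1 array left out. For the mean Dex effect Slc25a12 was -0.0013 with quantile normalization again and Slc25a18 -0.0075 in replicates 1 to 3.

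The interaction of Slc25a13 was -0.18 in replicates 1 to 3 and -0.063 with array weights, that of Slc25a22 0.39 in replicates 4 and 5, and that of Slc25a12 -0.29 to 0.0223 with 1 array left out. The genotype difference under Dex in replicates 1 to 3 was -0.0622 for Slc25a13 and -0.0196 for Slc25a18, which stood at -0.0033 without Cx30GRko Dex replicates 4 and 5. Under saline Slc25a13 was 0.12 in replicates 1 to 3, 0.13 with array weights, 0.0168 with quantile normalization again and -0.0718 to 0.0574 with 1 array left out. Slc25a22 was -0.70 in replicates 4 and 5 and -0.12 to 0.36 with 1 array left out. The array set difference of Slc25a12 was -0.17 without Cx30GRko Dex replicates 4 and 5, -0.0219 with array weights, -0.20 with quantile normalization again and -0.19 to 0.26 with 1 array left out. That of Got2 was -0.11 with probe sets averaged and -0.0446 with quantile normalization again, and that of Slc25a13 ranged from -0.48 to 0.0261 with 1 array left out.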
